A study of Caenorhabditis elegans with 14 samples.

Results

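Metallothioneins and cadmium-responsive genes were followed across all groups as 6 genes chosen by name, of 46856 genes in each deposited table: mtl-1, mtl-2, cdr-1, cdr-2, cdr-4 and numr-1. All 6 passed the filter on low counts in every fit, although mtl-1, cdr-1 and numr-1 lay near the low end of what was measured.

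Metallothioneins are small cysteine-rich proteins that bind zinc, copper and cadmium, and C. elegans has 2 of them, mtl-1 and mtl-2. Both are known as genes that the intestine switches on under cadmium, and mtl-1 is also a widely used target gene of DAF-16, the FOXO factor that acts when insulin signaling is low. The cdr genes encode a family that resembles glutathione S-transferases and was named after cdr-1, whose product sits in intestinal lysosomes and is induced by cadmium, while numr-1 encodes a nuclear protein that is induced by metals. Cadmium itself was not given to any worm here, so the values describe these genes under reduced insulin/IGF-1-like signaling (rIIS), RNAi and heat.

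Whole worms gave 14 RNA libraries, with 2 libraries for each of 7 groups. The study gives their stage as L4 to young adult in its results and as young adult to gravid in its methods. The groups that were heat shocked at 33 °C for 2 h after growth at 20 °C are marked (HS): hsf-1i (HS), rIIS-C (HS) and C (HS). The other 4, skn-1i, daf-16i, rIIS-C and C, stayed at 20 °C. hsf-1i (HS), skn-1i and daf-16i were rrf-3(pk1426);daf-2(e1368) worms on RNAi against the named transcription factor, rIIS-C and rIIS-C (HS) the same double mutant on empty vector, and C and C (HS) the single mutant rrf-3(pk1426) on empty vector. Every group thus carried rrf-3(pk1426), which makes worms hypersensitive to RNAi, and daf-2(e1368) lowers the function of the insulin/IGF-1 receptor without removing it. Each library came from a pool of worms, and the study states that some immotile rrf-3 animals were picked out by hand after heat shock. In whole worms, fewer cells of a type and less RNA per cell cannot be told apart.

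Exon reads per library ran from 4681170 to 22767301, and values are given as CPM (counts of exon reads scaled to the library total, with TMM factors over all 14 libraries). The share of exon reads that cross an exon junction split the libraries in 2 sets outside C (HS), 6 at 22.57% to 26.34% and 6 at 9.39% to 9.89%, with 1 library of each group in each set. Both C (HS) libraries lay between them, at 14.3% and 16.73%. In comparisons with C (HS), the factor compared and this difference between libraries cannot be told apart. The share of gene reads (exon and intron reads) that fell outside exons was largest in skn-1i replicate 2. That library had 12005877 exon reads among 13760659 gene reads, and skn-1i replicate 1 had 6331130 among 6580280. RNAi lowered skn-1 and hsf-1. skn-1 averaged 25.7 CPM in skn-1i and 128 in rIIS-C (log2 fold change, log2FC, −2.31 ± 0.21 SE, adjusted p = 5.61e-06, edgeR), and hsf-1 averaged 13.7 CPM in hsf-1i (HS) and 38.1 in rIIS-C (HS) (log2FC −1.46 ± 0.19 SE, adjusted p = 0.000197, edgeR). For daf-16 the means were 46.2 CPM in daf-16i and 67.9 in rIIS-C, a difference that did not pass the test (log2FC −0.55 ± 0.26 SE, adjusted p = 0.283, edgeR). No marker of the 7 tissue lists checked (46 genes of intestine, pharynx, muscle, hypodermis, neurons, germ line and sperm) lacked reads in all libraries.

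Coordinates are those of the files, on WBcel235. mtl-1 (WBGene00003473) lies on chromosome V (6691485 to 6691832, minus strand, 2 exons, 228 bases of coding length) and mtl-2 (WBGene00003474) on the same chromosome (14018371 to 14018619, minus strand, 2 exons, 192 bases). cdr-4 (WBGene00010470, 12407439 to 12408568, 6 exons) and cdr-2 (WBGene00008296, 12414684 to 12415704, 5 exons) stand 6115 bases apart in a minus-strand cluster on chromosome V, and cdr-1 lies elsewhere on V (WBGene00000412, 15921376 to 15922773, plus strand, 6 exons). numr-1 is a single-exon gene of chromosome III (WBGene00017270, 7362619 to 7363464, minus strand).

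The levels of the 6 genes differed widely. Per kb of coding length, the scale on which genes can be compared, cdr-4 was the highest of them in C, with 57.2 ± 2.85 CPM per kb (SD, n = 2), followed by cdr-2 with 22.3 ± 2.44. The others stood between 1.25 (cdr-1) and 4.31 (mtl-2) CPM per kb there. In hsf-1i (HS) the order was another one, with mtl-2 at 303 ± 3.41 CPM per kb, cdr-2 at 55.4 ± 1.59, mtl-1 at 37.4 ± 2.44 and cdr-4 at 22.8 ± 2.38. mtl-2 was above mtl-1 in CPM per kb in 14 of 14 libraries, and cdr-4 above cdr-2 in 12 of 14.

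**Figure D1:**
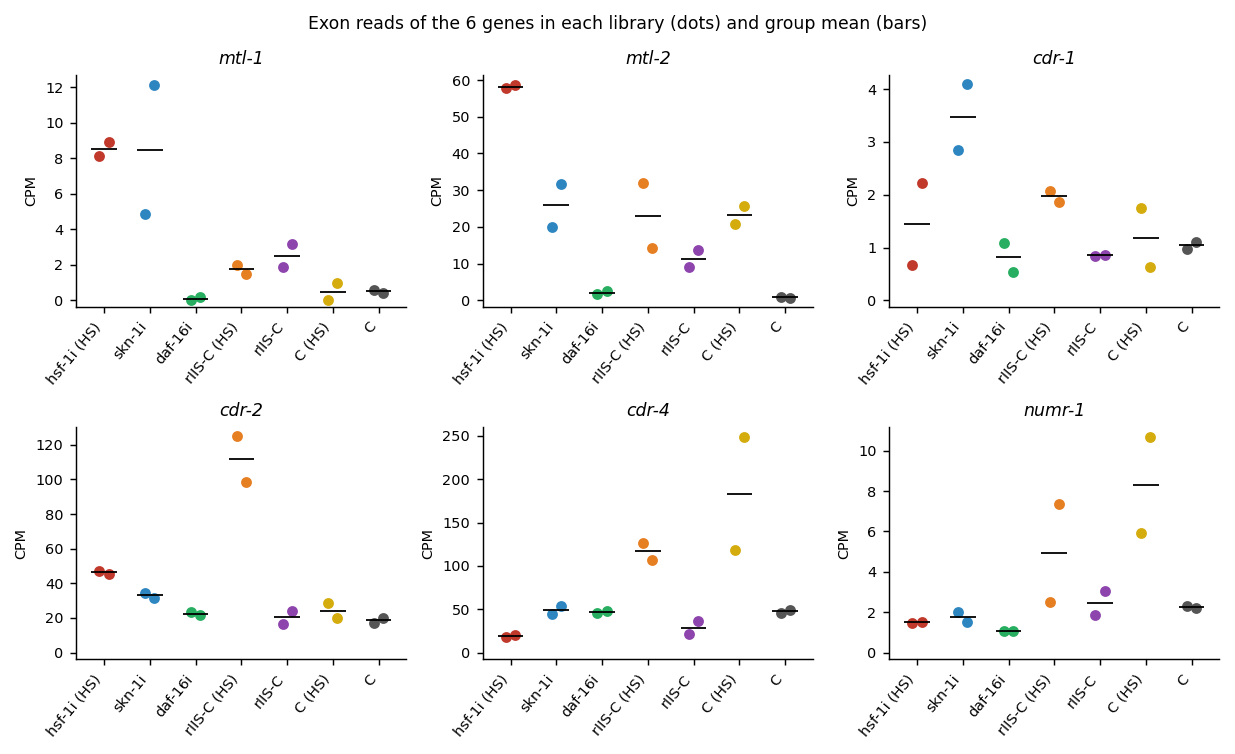
CPM of each gene in each library (dots, 2 per group) with the group mean (horizontal bar), a panel per gene with its own linear axis. Both metallothioneins are highest in hsf-1i (HS) and skn-1i and near 0 in daf-16i and C, cdr-2 stands out in rIIS-C (HS) at 125 and 98.5 CPM, and cdr-4 in rIIS-C (HS) and C (HS).

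mtl-1 had few reads in most groups. Its levels were 8.13 and 8.92 CPM in hsf-1i (HS), 4.87 and 12.1 in skn-1i, 0 and 0.2 in daf-16i, 2.01 and 1.47 in rIIS-C (HS), 1.85 and 3.18 in rIIS-C, 0 and 0.951 in C (HS), and 0.6 and 0.403 in C. The libraries of hsf-1i (HS) and skn-1i overlapped with each other and lay above all others, those of rIIS-C and rIIS-C (HS) overlapped in the middle, while C (HS) overlapped with both C and daf-16i, and C lay above daf-16i. The 2 libraries of daf-16i held 3 mtl-1 reads between them, those of C (HS) 12 and those of C 16, so that ratios to these groups are set by a handful of reads. Its value is not shared with a copy, since 100% of its 390 exon reads mapped uniquely.

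mtl-2 was at higher levels, and its highest means were again those of hsf-1i (HS) and skn-1i. Unlike mtl-1, it had higher means in C (HS) and rIIS-C (HS) than in rIIS-C, and in daf-16i than in C. It had 57.7 and 58.6 CPM in hsf-1i (HS), 19.9 and 31.8 in skn-1i, 1.64 and 2.53 in daf-16i, 31.9 and 14.3 in rIIS-C (HS), 9.1 and 13.6 in rIIS-C, 20.8 and 25.8 in C (HS), and 0.9 and 0.755 in C. hsf-1i (HS) stood above every other library, skn-1i, C (HS) and rIIS-C (HS) overlapped, and rIIS-C, daf-16i and C followed in that order with no overlap. Over the 14 libraries the 2 metallothioneins correlated at r = 0.68 (Pearson, log2 CPM), which describes libraries that share groups.

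The cdr genes had other orders. cdr-2 was highest in rIIS-C (HS), at 125 and 98.5 CPM, then in hsf-1i (HS), at 47.3 and 45.4, and in skn-1i, at 34.3 and 31.7, with no overlap between these neighbours, whereas C (HS), at 28.4 and 19.9, daf-16i, at 23.3 and 21.7, rIIS-C, at 16.8 and 24, and C, at 17.3 and 20.1, overlapped. cdr-4 was highest in the overlapping C (HS) and rIIS-C (HS), then came the overlapping skn-1i, C and daf-16i, and below them rIIS-C, at 21.6 and 36.1 CPM, and hsf-1i (HS), at 17.6 and 20.4, each apart from its neighbour. cdr-1 stood at 4.1 CPM or less in every library, highest in skn-1i, and both rIIS-C (HS) libraries, at 2.07 and 1.87 CPM, lay above those of C (HS) and C. hsf-1i (HS), at 0.666 and 2.23 CPM, spanned the values of rIIS-C (HS) and C, and C (HS), at 1.74 and 0.634, overlapped with C.

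numr-1 had 1.47 and 1.54 CPM in hsf-1i (HS), 2.03 and 1.52 in skn-1i, 1.09 and 1.07 in daf-16i, 2.53 and 7.36 in rIIS-C (HS), 1.85 and 3.04 in rIIS-C, 5.94 and 10.7 in C (HS), and 2.33 and 2.22 in C. The libraries of C (HS), rIIS-C (HS), rIIS-C and C overlapped each with the next. Below C, skn-1i and hsf-1i (HS) overlapped, and daf-16i was lowest with no overlap. None of these reads mapped uniquely. With the reads of its near-identical copy numr-2 added, skn-1i was lowest (mean 2.50 CPM), below daf-16i (3.11) with no overlap.

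**Figure D2:**
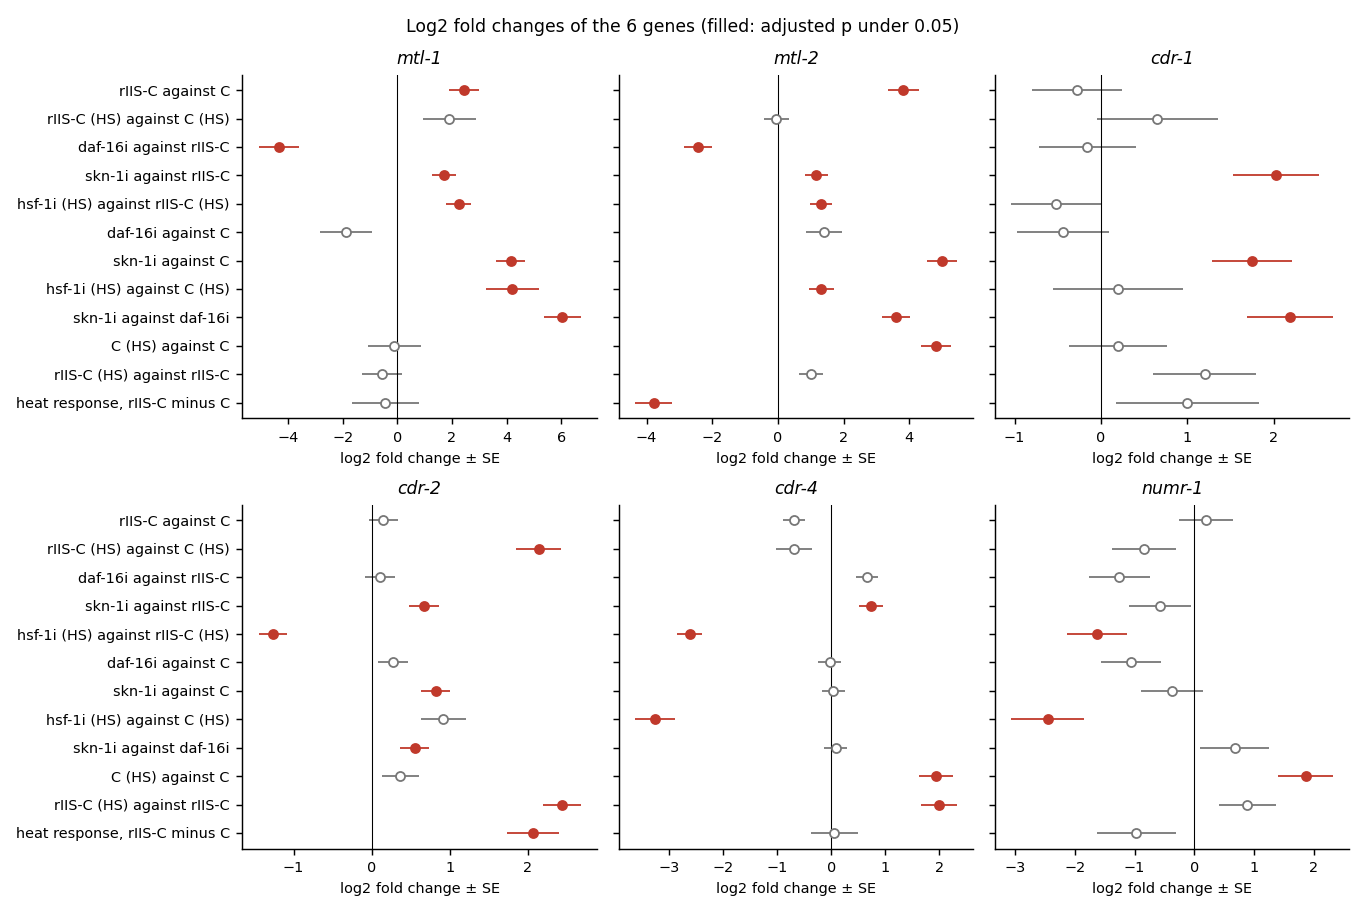
Log2FC (horizontal axis, its range differing between panels) of each gene in each of the 12 comparisons (rows), first-named group over the second, as points with bars of 1 standard error, filled where the edgeR adjusted p was under 0.05. Both metallothioneins are filled right of 0 in rIIS-C against C, in the skn-1i and hsf-1i (HS) comparisons, and left of 0 in daf-16i against rIIS-C, and in the lowest row cdr-2 and mtl-2 alone are filled.

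In rIIS-C against C, the comparison for the daf-2 allele at 20 °C, both metallothioneins rose, and cdr-1, cdr-2, cdr-4 and numr-1 did not pass. mtl-2 had a log2FC of 3.82 ± 0.46 SE (adjusted p = 0.000291, edgeR) and mtl-1 one of 2.45 ± 0.55 SE (adjusted p = 0.0149, edgeR), and the libraries of the groups did not overlap for either. The 2 of 6 genes called, both higher, stand beside 11% of the 13892 genes tested (4.46% higher and 6.54% lower), and the median log2FC was 0.18 over the 6 and 0.06 over all genes tested. Within the junction-read sets the log2 ratios, high share first, were 4.17 and 3.34 for mtl-2 and 2.98 and 1.63 for mtl-1. The call of mtl-1 was lost without C replicate 1, without C replicate 2 or without rIIS-C replicate 2 (edgeR adjusted p = 0.068, 0.161 and 0.15). Of the intestine markers, which summed to 1920 to 3150 CPM in rIIS-C and 3080 to 3360 CPM in C, 1 of 10 was called higher and 1 lower. Body wall muscle markers had 3 of 6 called lower (1500 to 2000 CPM in rIIS-C and 2910 to 3020 CPM in C) and hypodermis markers 3 of 6 (2170 to 3050 CPM in rIIS-C and 3440 to 3540 CPM in C), and the part of these markers was not tested.

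cdr-4 leaned the other way in this comparison, with 21.6 and 36.1 CPM in rIIS-C and 46 and 49.4 in C. All rIIS-C values lay below those of C, but its log2FC of −0.69 ± 0.21 SE missed the threshold (edgeR adjusted p = 0.0594). It passed with the junction-read set as a block (log2FC −0.71, edgeR adjusted p = 0.0046), with DESeq2 (adjusted p = 0.0329) and without rIIS-C replicate 2 (log2FC −1.15, edgeR adjusted p = 0.00485). cdr-2 and numr-1 overlapped between the groups (0.15 ± 0.19 SE, and 0.20 ± 0.45 SE), and cdr-1 had slightly lower values in rIIS-C at few reads (−0.28 ± 0.52 SE).

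daf-16i against rIIS-C asks which levels in the daf-2 background rest on daf-16, and here the metallothioneins fell, even though the daf-16 RNA itself did not pass. mtl-2 had a log2FC of −2.44 ± 0.42 SE (adjusted p = 0.00448, edgeR) and within-set ratios of −2.42 and −2.48. mtl-1 had 3 reads in daf-16i and 77 in rIIS-C, a ratio of 0.043 of the scaled levels with an exact 95% interval of 0.00867 to 0.13 that covers counting error only (edgeR log2FC −4.34 ± 0.75 SE, adjusted p = 0.00481). These 2 of 6 genes, both lower, stand beside 6.07% of all genes tested that were called (3.29% higher and 2.78% lower), and the median log2FC was −0.71 over the 6 and −0.03 over all genes. Without rIIS-C replicate 2 neither was called (edgeR adjusted p = 0.0507 for mtl-2 and 0.0563 for mtl-1), and mtl-2 also missed without daf-16i replicate 1 (edgeR adjusted p = 0.0537).

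cdr-4 had 45.4 and 47.7 CPM in daf-16i, against 21.6 and 36.1 in rIIS-C. The groups did not overlap, but the log2FC of 0.66 ± 0.21 SE (adjusted p = 0.105, edgeR) did not pass. It was called in 4 of 21 alternatives, among them the block by junction-read set (log2FC 0.67, edgeR adjusted p = 0.0102) and the fit without rIIS-C replicate 2 (log2FC 1.11, edgeR adjusted p = 0.0079). cdr-2, with a log2FC of 0.11 ± 0.19 SE, and cdr-1, with −0.16 ± 0.56 SE, overlapped between the groups. numr-1 was lower in both daf-16i libraries without passing (−1.26 ± 0.51 SE, adjusted p = 0.2, edgeR). For the summed reads of numr-1 and its copy numr-2 the value was −0.76 ± 0.45 SE (adjusted p = 0.41, edgeR).

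Set against C, daf-16i had none of the 6 genes called by edgeR, 1 of them at an unadjusted p under 0.05 and none by DESeq2 (2 unadjusted), beside 1.59% of all genes called (0.382% higher and 1.21% lower). mtl-2 was 1.64 and 2.53 CPM in daf-16i and 0.9 and 0.755 in C, without overlap (log2FC 1.39 ± 0.55 SE, adjusted p = 0.459, edgeR), and with the trend of counts on coding length removed it passed (log2FC 1.45, edgeR adjusted p = 0.0355). mtl-1 had 3 reads in daf-16i and 16 in C and did not pass either (log2FC −1.89 ± 0.96 SE, adjusted p = 0.727, edgeR). cdr-4 had a log2FC of −0.03 ± 0.21 SE there. numr-1 was 1.09 and 1.07 CPM in daf-16i and 2.33 and 2.22 in C (log2FC −1.06 ± 0.50 SE, adjusted p = 0.658, edgeR), while numr-2, which shares its reads, was 2.07 and 2 CPM in daf-16i and 2.18 and 2.12 in C.

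In skn-1i against rIIS-C, 5 of the 6 genes rose, beside 56.2% of all genes called, 25.7% higher and 30.6% lower. skn-1 encodes the Nrf-type regulator of detoxification genes. mtl-1 had a log2FC of 1.69 ± 0.44 SE (adjusted p = 0.00663, edgeR) and mtl-2 one of 1.16 ± 0.35 SE (adjusted p = 0.0148, edgeR). With the trend of counts on coding length removed, both were smaller but stayed called. mtl-1 was then at 1.25 (edgeR adjusted p = 0.0072) and mtl-2 at 0.73 (edgeR adjusted p = 0.00516). The median log2FC was 0.95 over the 6 genes and −0.13 over all genes tested. Within the junction-read sets the log2 ratios were 1.92 and 1.39 for mtl-1 and 1.23 and 1.13 for mtl-2.

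cdr-1 had 2.84 and 4.1 CPM in skn-1i and 0.842 and 0.868 in rIIS-C. Both skn-1i libraries were above all libraries of every other group, and the log2FC was 2.03 ± 0.50 SE (adjusted p = 0.00492, edgeR), from 49 reads in skn-1i and 23 in rIIS-C. cdr-2 was 34.3 and 31.7 CPM in skn-1i and 16.8 and 24 in rIIS-C (log2FC 0.67 ± 0.19 SE, adjusted p = 0.0115, edgeR). cdr-4 was 44.4 and 53.3 CPM in skn-1i and 21.6 and 36.1 in rIIS-C (log2FC 0.74 ± 0.22 SE, adjusted p = 0.0129, edgeR). The groups did not overlap for any of these 3 genes, and all within-set ratios were positive, from 0.40 (cdr-2, high share) to 2.24 (cdr-1, high share).

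How many genes passed depended on single libraries: without skn-1i replicate 2, cdr-2 alone was called and mtl-1 was at 0.85 (edgeR adjusted p = 0.193), without rIIS-C replicate 1 it was 2 (mtl-1 and cdr-1), and with all 14 libraries in the fit it was 3 (mtl-2, cdr-1 and cdr-2). skn-1i replicate 2 was also the library with the largest share of gene reads outside exons, and the part of this was not tested. Markers of the intestine and of other tissues moved in this comparison too. The summed level of the 10 intestine markers was 11900 to 12600 CPM in skn-1i and 1920 to 3150 CPM in rIIS-C, and 5 of the 10 were called higher and 3 lower. The body wall muscle list (6 genes) summed to 12600 to 13300 CPM in skn-1i and 1500 to 2000 CPM in rIIS-C. Pharynx markers summed to 239 to 261 CPM in skn-1i and 31 to 45.3 in rIIS-C. Hypodermis markers had 7460 to 9350 and 2170 to 3050 CPM, and neuron markers 305 to 317 and 119 to 124. Sperm markers were lower in skn-1i, at 31.6 to 35.1 CPM against 78.8 to 104, and the germ line sums overlapped. No intestine or muscle marker was at 0, and the part of these shifts in the values of the 6 genes was not tested.

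skn-1i was above C as well for 4 of the 6 genes (all higher, beside 59.5% of all genes called, 28.5% higher and 31.1% lower). The log2FCs were 4.99 ± 0.46 SE for mtl-2 (adjusted p = 4.89e-06, edgeR), 4.14 ± 0.52 SE for mtl-1 (adjusted p = 4.82e-05, edgeR), 1.75 ± 0.46 SE for cdr-1 (adjusted p = 0.00673, edgeR) and 0.82 ± 0.19 SE for cdr-2 (adjusted p = 0.00305, edgeR). cdr-4 overlapped with C (0.04 ± 0.21 SE). The call of cdr-1 was lost without skn-1i replicate 2 (edgeR adjusted p = 0.0891), and mtl-1 was at 3.29 without it.

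The 2 RNAi groups were also tested against each other. skn-1i exceeded daf-16i in 4 genes, beside 58.6% of all genes called (28.1% higher and 30.5% lower): mtl-1, mtl-2, cdr-1 and cdr-2. The log2FC was 3.6 ± 0.42 SE for mtl-2 (adjusted p = 2.43e-05, edgeR), 2.19 ± 0.50 SE for cdr-1 (adjusted p = 0.00305, edgeR) and 0.55 ± 0.19 SE for cdr-2 (adjusted p = 0.0262, edgeR). For mtl-1 the scaled level of daf-16i was 0.0132 of that of skn-1i (3 and 127 reads, exact 95% interval 0.00268 to 0.0394, edgeR adjusted p = 2.13e-05). cdr-4 did not pass (log2FC 0.08 ± 0.21 SE). The call of cdr-2 was lost whenever any 1 of the 4 libraries of these groups was left out, with edgeR adjusted p of 0.067 to 0.136.

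After heat, hsf-1i (HS) against rIIS-C (HS) split the 6 genes: the metallothioneins rose, while cdr-2, cdr-4 and numr-1 fell. hsf-1 encodes the heat shock factor. mtl-1 had a log2FC of 2.24 ± 0.47 SE (adjusted p = 0.00308, edgeR) and mtl-2 one of 1.31 ± 0.33 SE (adjusted p = 0.0095, edgeR). Neither metallothionein overlapped between the groups, and within the junction-read sets the ratios were 2.15 and 2.47 for mtl-1 and 0.88 and 2.01 for mtl-2. The call of mtl-2 was lost without rIIS-C (HS) replicate 2 or without hsf-1i (HS) replicate 2 (edgeR adjusted p = 0.0501 and 0.0526), and without rIIS-C (HS) replicate 1 its value was 2.03.

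cdr-4 was 17.6 and 20.4 CPM in hsf-1i (HS) and 127 and 107 in rIIS-C (HS), a log2FC of −2.62 ± 0.23 SE (adjusted p = 2.38e-05, edgeR). cdr-2 was 47.3 and 45.4 CPM in hsf-1i (HS) and 125 and 98.5 in rIIS-C (HS), a log2FC of −1.27 ± 0.18 SE (adjusted p = 0.000349, edgeR). The groups were far apart for both genes, and their calls held in each of the 21 alternatives tried. cdr-1 did not pass, with 0.666 and 2.23 CPM in hsf-1i (HS) and 2.07 and 1.87 in rIIS-C (HS) (log2FC −0.52 ± 0.52 SE). In this comparison 5 of the 6 genes were called, 2 higher and 3 lower, beside 38.1% of all genes (18.8% higher and 19.3% lower), and the median log2FC was −0.90 over the 6 and −0.05 over all genes.

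Intestine markers were at other levels here as well, with sums of 15300 to 16500 CPM in hsf-1i (HS) and 6010 to 7400 CPM in rIIS-C (HS), 4 of 10 called higher and 3 lower, and none at 0. The muscle markers summed to 10400 to 10800 CPM in hsf-1i (HS) and 3320 to 3670 CPM in rIIS-C (HS). Pharynx, hypodermis and neuron lists summed higher in hsf-1i (HS) too, for pharynx at 230 to 267 CPM against 44.7 to 52.5. Sperm markers summed lower, at 42.7 to 52.2 CPM against 59.7 to 64.6, and the germ line sums overlapped. The part of all these lists in the values of the metallothioneins and cdr genes was not tested.

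Against C (HS), hsf-1i (HS) had 4 of the 6 genes called, beside 21.3% of all genes (9.93% higher and 11.3% lower). mtl-1 (log2FC 4.21 ± 0.96 SE, adjusted p = 0.0205, edgeR) and mtl-2 (1.32 ± 0.37 SE, adjusted p = 0.0415, edgeR) were higher, and cdr-4 (−3.27 ± 0.37 SE, adjusted p = 0.00247, edgeR) and numr-1 (−2.46 ± 0.61 SE, adjusted p = 0.0279, edgeR) were lower. cdr-2 missed at 0.92 ± 0.29 SE (adjusted p = 0.0548, edgeR) and was called in 6 of 14 alternatives. With either hsf-1i (HS) library left out, cdr-4 alone of the 6 was called, and with either rIIS-C (HS) library left out mtl-1 missed (edgeR adjusted p = 0.0661 and 0.0664). C (HS) replicate 2 held all 12 mtl-1 reads of its group, and mtl-1 was at 3.18 without C (HS) replicate 1. cdr-4 was at −2.67 without C (HS) replicate 2.

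In C (HS) against C, the comparison for heat shock in C, 3 of the 6 genes were called higher. Of all genes, 52.3% were called, 27.4% higher and 24.9% lower. Heat and the deviating junction-read share of the C (HS) libraries cannot be told apart in these values. mtl-2 rose by 4.81 ± 0.45 SE on the log2 scale (adjusted p = 9.24e-06, edgeR), cdr-4 by 1.94 ± 0.32 SE (adjusted p = 0.000339, edgeR) and numr-1 by 1.87 ± 0.46 SE (adjusted p = 0.00446, edgeR). For cdr-4 the libraries were at 118 and 249 CPM in C (HS) and 46 and 49.4 in C, so that both heated libraries were above C but lay far apart from each other, and without C (HS) replicate 2 the log2FC was 1.30 (edgeR adjusted p = 0.00115). mtl-1 had 0 and 12 reads in C (HS) and 8 in each library of C, which gives no direction. cdr-2 was 28.4 and 19.9 CPM in C (HS) and 17.3 and 20.1 in C, with overlap (log2FC 0.37 ± 0.24 SE, adjusted p = 0.204, edgeR), and passed without C (HS) replicate 2 (0.60, edgeR adjusted p = 0.0412).

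The reads behind the mtl-2 value in C (HS) were unlike those of other groups. None of its 636 exon reads in C (HS) crossed the exon junction, a share of 0% (exact 95% interval up to 0.578%, counting error only). The share was 28.4% in hsf-1i (HS), 36.2% in skn-1i, 34% in daf-16i, 36.1% in rIIS-C (HS), 38.4% in rIIS-C and 11.1% in C, the last from 27 reads (exact 95% interval 2.35% to 29.2%). For cdr-4 the share was 36.4% in C (HS) and 36.3% in C. Of 5112 genes with at least 200 reads in C (HS) and in the other libraries together, and a share of at least 20% in those others, 6 had no junction read in C (HS), mtl-2 among them. Of these 6 genes, 5 had under 300 bases of coding length, as had 267 of the 5112. The median ratio of the C (HS) share to the share elsewhere was 0.782 over the 267 short genes and 0.877 over all 5112.

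**Figure D3:**
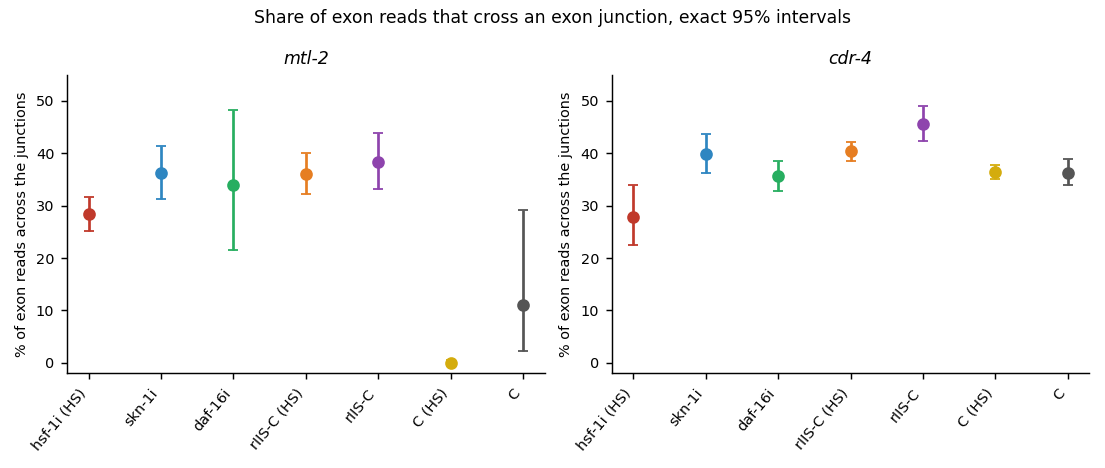
Percent of exon reads of mtl-2 (left) and cdr-4 (right) that cross an exon junction, in the pooled reads of each group, with exact 95% binomial intervals that cover counting error only. The mtl-2 share is 0 in C (HS), from 636 reads, and 28.4% to 38.4% in the 5 groups with daf-2(e1368), while cdr-4 shows 36.4% in C (HS).

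Short genes as a class were also higher in C (HS). The 699 tested genes under 300 bases of coding length had a median log2FC of 1.45 there, against 0.03 over all genes, and 61.2% of them were called higher. With the trend on coding length removed, the log2FC of mtl-2 was 3.41 (edgeR adjusted p = 4.56e-06), so the call stayed at a smaller value. Of the short genes, 17, mtl-2 included, had a log2FC at or above that of mtl-2. The intestine markers summed to 7260 to 9650 CPM in C (HS) and 3080 to 3360 CPM in C, with 5 of 10 called higher and 3 lower. Muscle, pharynx, hypodermis and neuron lists also summed higher in C (HS), for muscle at 6430 to 9140 CPM against 2910 to 3020 in C. Sperm markers summed lower, at 37.1 to 40 CPM against 99.9 to 101, and the germ line sums overlapped. The part that read origin, gene length and these markers had in the mtl-2 value was not tested. As both C (HS) libraries lay between the junction-read sets, no within-set value is given for comparisons with them.

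Heat shock in the daf-2 background, rIIS-C (HS) against rIIS-C, raised cdr-2 and cdr-4, 2 of the 6 genes beside 2.21% of all genes called, 1.89% higher and 0.320% lower. cdr-2 was 125 and 98.5 CPM in rIIS-C (HS) and 16.8 and 24 in rIIS-C, a log2FC of 2.44 ± 0.24 SE (adjusted p = 0.000502, edgeR) that was called in all 23 alternatives. cdr-4 was 127 and 107 CPM in rIIS-C (HS) and 21.6 and 36.1 in rIIS-C (log2FC 2.00 ± 0.33 SE, adjusted p = 0.00803, edgeR). Within the junction-read sets the ratios were 2.39 and 2.55 for cdr-2 and 1.81 and 2.31 for cdr-4. The call of cdr-4 was lost without rIIS-C replicate 1 or without rIIS-C (HS) replicate 1 (edgeR adjusted p = 0.0629 and 0.0565). The intestine markers summed to 6010 to 7400 CPM in rIIS-C (HS) and 1920 to 3150 CPM in rIIS-C, with 4 of 10 called higher, and their part was not tested.

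mtl-2, at 31.9 and 14.3 CPM in rIIS-C (HS) and 9.1 and 13.6 in rIIS-C, did not pass (log2FC 1.01 ± 0.36 SE, adjusted p = 0.173, edgeR), and it did with the junction-read set as a block over 12 libraries (log2FC 1.01, edgeR adjusted p = 0.00613). mtl-1 had a log2FC of −0.57 ± 0.73 SE and cdr-1 one of 1.20 ± 0.60 SE (adjusted p = 0.342, edgeR).

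Between the heated groups, rIIS-C (HS) against C (HS), cdr-2 alone of the 6 was called, beside 24.9% of the 13149 genes tested (10.4% higher and 14.5% lower). It stood at 125 and 98.5 CPM in rIIS-C (HS) and 28.4 and 19.9 in C (HS), a log2FC of 2.14 ± 0.29 SE (adjusted p = 0.00449, edgeR). The call was lost without rIIS-C (HS) replicate 2 (log2FC 2.32, edgeR adjusted p = 0.0518). mtl-2, with a log2FC of −0.05 ± 0.37 SE (adjusted p = 0.936, edgeR), overlapped between these groups, and it turned to 0.96 with the trend on coding length removed (edgeR adjusted p = 0.0428). cdr-4 leaned lower at −0.69 ± 0.34 SE (adjusted p = 0.163, edgeR) and was called without C (HS) replicate 1 (log2FC −1.10, edgeR adjusted p = 0.00379). Of the markers, 4 of 10 for intestine were called higher and 1 lower, 3 of 6 for body wall muscle lower and 1 higher, and 3 of the 4 tested for pharynx lower. The muscle list summed to 3320 to 3670 CPM in rIIS-C (HS) and 6430 to 9140 CPM in C (HS), the pharynx list to 44.7 to 52.5 CPM in rIIS-C (HS) and 92.5 to 296 CPM in C (HS), and the part of these markers was not tested.

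An interaction term compared the heat response of rIIS-C with that of C, and 2 of the 6 genes passed, beside 20.5% of all genes (9.97% higher and 10.6% lower). The C (HS) libraries, which lay between the junction-read sets, enter this term, and the part of that difference was not tested. For cdr-2 the response of rIIS-C exceeded that of C by 2.07 ± 0.33 SE on the log2 scale (adjusted p = 0.00205, edgeR). For mtl-2 the response of rIIS-C minus that of C was −3.79 ± 0.57 SE (adjusted p = 0.00126, edgeR), and −2.80 with the trend on coding length removed (edgeR adjusted p = 0.000566). For cdr-4 the responses were 2.00 in rIIS-C and 1.94 in C, with a difference of 0.06 ± 0.44 SE (adjusted p = 0.941, edgeR).

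numr-1 has a near-identical copy, numr-2, on the opposite strand 920 bases away, and 0% of its 536 exon reads mapped uniquely. Its own value is therefore uncertain, and the reads of both genes are given together. Summed, they averaged 3.23 ± 0.0416 CPM in hsf-1i (HS), 2.50 ± 0.1 in skn-1i, 3.11 ± 0.0661 in daf-16i, 10.6 ± 7.74 in rIIS-C (HS), 5.10 ± 1.25 in rIIS-C, 18.0 ± 6.59 in C (HS) and 4.42 ± 0.121 in C (SD, n = 2 each). C (HS) and rIIS-C (HS) were highest and overlapped with each other, and rIIS-C (HS) overlapped with rIIS-C too.

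For the summed reads, C (HS) was above C by a log2FC of 2.02 ± 0.44 SE (adjusted p = 0.00191, edgeR), and hsf-1i (HS) was below C (HS), at −2.47 ± 0.57 SE (adjusted p = 0.0214, edgeR), and below rIIS-C (HS), at −1.65 ± 0.46 SE (adjusted p = 0.0162, edgeR). In skn-1i against rIIS-C the summed value was −1.06 ± 0.50 SE (adjusted p = 0.0891, edgeR), against −0.58 for numr-1 alone. numr-1 alone in hsf-1i (HS) against rIIS-C (HS) had a log2FC of −1.63 ± 0.51 SE (adjusted p = 0.0267, edgeR), which was −0.76 without rIIS-C (HS) replicate 2 (edgeR adjusted p = 0.206) and −2.28 without replicate 1. The numr-1 ratios within the junction-read sets were −0.71 and −2.33, the wider one from the set that holds rIIS-C (HS) replicate 2.

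The cdr cluster, from cdr-4 to cdr-3 (chromosome V, 12407439 to 12417377), holds hrg-2, cdr-7, cdr-6 and cdr-2 between them. hrg-2 encodes a heme-responsive protein and is named here for its place in the cluster. The genes of the cluster were called in different comparisons. cdr-7 was 7.24 and 7.14 CPM in rIIS-C and 22.7 and 22.7 in C (log2FC −1.65 ± 0.17 SE, adjusted p = 8.78e-05, edgeR). It was 22.7 and 20.2 CPM in daf-16i, above rIIS-C by a log2FC of 1.57 ± 0.17 SE (adjusted p = 0.000172, edgeR). hrg-2 was called in the same directions, at −0.93 ± 0.23 SE in rIIS-C against C (adjusted p = 0.0231, edgeR) and 1.36 ± 0.23 SE in daf-16i against rIIS-C (adjusted p = 0.00428, edgeR), where the metallothioneins were called in the opposite directions.

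cdr-6 was 95.1 and 111 CPM in skn-1i and 44.1 and 55.1 in rIIS-C (log2FC 1.05 ± 0.17 SE, adjusted p = 0.00033, edgeR). cdr-7, at 7.3 and 9.13 CPM in skn-1i and 7.24 and 7.14 in rIIS-C, did not pass (0.21 ± 0.18 SE, adjusted p = 0.344, edgeR). cdr-6 was higher in C (HS) than in C (log2FC 1.34 ± 0.21 SE, adjusted p = 0.000245, edgeR) and in rIIS-C (HS) than in rIIS-C (1.00 ± 0.21 SE, adjusted p = 0.0269, edgeR). Unlike cdr-4 and cdr-2, cdr-6 was not lower in hsf-1i (HS) than in rIIS-C (HS): the log2FC was 0.03 ± 0.17 SE (adjusted p = 0.923, edgeR), and the differences from cdr-4 and cdr-2 were not tested. cdr-3 had at most 3 reads in a group and was not tested.

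**Figure D4:**
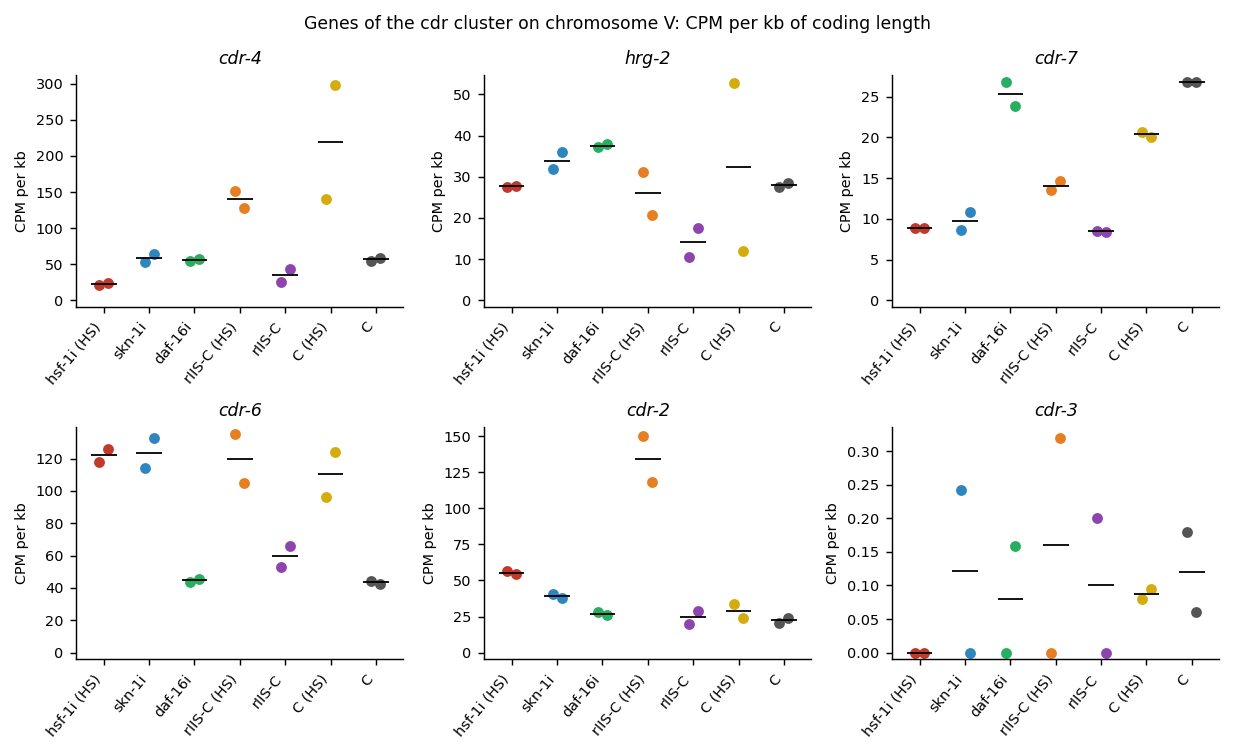
CPM per kb of coding length of the 6 genes of the cdr cluster on chromosome V in each library (dots) with the group mean (horizontal bar), a panel per gene in chromosomal order and each with its own linear axis. cdr-7 and hrg-2 have their lowest mean in rIIS-C, cdr-2 peaks in rIIS-C (HS), cdr-6 is high in the 3 heated groups and in skn-1i, and cdr-3 is near 0.

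A list of 23 other metal-handling genes (transporters of zinc, copper, manganese and iron, ferritins, glutathione and phytochelatin synthesis, ABC transporters and metal signaling) had 22 genes tested. In rIIS-C against C, 2 were higher and 1 lower (4.46% and 6.54% of all genes), with a list median of 0.01 on the log2 scale beside 0.06 over all genes. pgp-1, an ABC transporter, was higher (2.64 ± 0.25 SE, adjusted p = 6.07e-05, edgeR), as was mek-1, a MAP kinase kinase of the heavy metal stress response (0.82 ± 0.17 SE, adjusted p = 0.00819, edgeR), and zipt-2.3, a ZIP-type zinc transporter, was lower (−2.39 ± 0.28 SE, adjusted p = 0.000229, edgeR). In daf-16i against rIIS-C, where 3.29% of all genes were higher and 2.78% lower, pgp-1 was lower (−3.46 ± 0.28 SE, adjusted p = 2.54e-05, edgeR) and smf-3, a metal ion transporter of the NRAMP family, was higher (0.97 ± 0.21 SE, adjusted p = 0.0183, edgeR).

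In skn-1i against rIIS-C, 3 of the 22 were higher and 10 lower, beside 25.7% higher and 30.6% lower of all genes, with a median of −0.47 beside −0.13. Among the lower ones were zipt-2.3 (−2.37 ± 0.44 SE, adjusted p = 0.000875, edgeR) and gss-1, the glutathione synthetase (−1.68 ± 0.14 SE, adjusted p = 3.96e-06, edgeR). numr-2, whose reads are shared with numr-1, was also counted as lower (−1.75 ± 0.65 SE, adjusted p = 0.0375, edgeR), from 11 reads in skn-1i. Summed with numr-1 it did not pass (−1.06 ± 0.50 SE, adjusted p = 0.0891, edgeR). numr-2 counts in the list in other comparisons too, so it is not independent of numr-1. In hsf-1i (HS) against rIIS-C (HS), 4 were higher and 7 lower beside 18.8% and 19.3% of all genes (median −0.30 beside −0.05), with hmt-1, a vacuolar transporter of heavy metal tolerance, at −1.25 ± 0.20 SE (adjusted p = 0.000716, edgeR) and cua-1, a copper ATPase, at −1.26 ± 0.23 SE (adjusted p = 0.00153, edgeR). C (HS) against C gave 3 higher and 9 lower, beside 27.4% and 24.9% of all genes, with mrp-1, an ABC transporter, at −2.66 ± 0.31 SE (adjusted p = 3.56e-05, edgeR).

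Heat shock in rIIS-C had none of the 22 called in either direction (1.89% and 0.320% of all genes). Its fit held all 14 libraries, with a wider spread estimate than the fit without C (HS) (common dispersion 0.0508 and 0.0275). Between the heated groups, 8 of the list were higher and 0 lower in rIIS-C (HS), beside 10.4% and 14.5% of all genes, with the ferritin gene ftn-1 at 2.69 ± 0.62 SE (adjusted p = 0.0205, edgeR) and pgp-1 at 2.26 ± 0.49 SE (adjusted p = 0.0172, edgeR). In the difference between the heat responses, 6 were higher and 0 lower beside 9.97% and 10.6% of all genes, among them mrp-1 (2.56 ± 0.42 SE, adjusted p = 0.00225, edgeR). daf-16i against C had 0 higher and 1 lower (0.382% and 1.21% of all genes), and skn-1i against C had 5 and 9 (28.5% and 31.1%). skn-1i against daf-16i had 4 and 11 (28.1% and 30.5%), and hsf-1i (HS) against C (HS) had 4 and 4 (9.93% and 11.3%). These comparisons share groups, so their counts are not independent of each other.

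**Figure D5:**
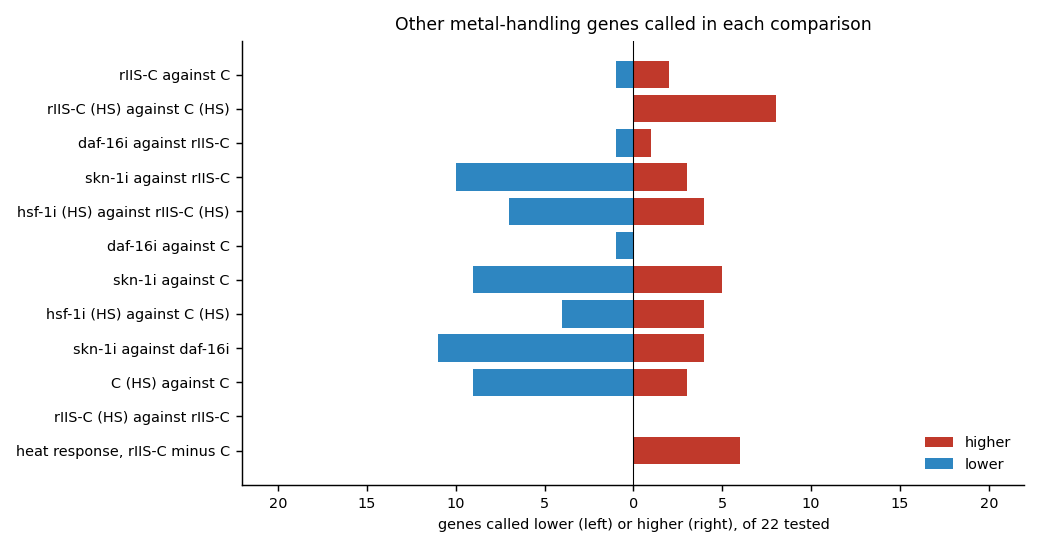
Number of the 22 tested metal-handling genes outside the 6 followed here that were called lower (left bars) or higher (right bars) in each comparison (rows), at an edgeR adjusted p under 0.05. The bars run left in skn-1i against rIIS-C (10 lower, 3 higher), right in rIIS-C (HS) against C (HS) (8 higher, 0 lower), and are absent for heat shock in rIIS-C.

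The genes whose levels ran most like each of the 6 over the 14 libraries were taken from 9360 genes (9359 where the gene itself was among them) tested that averaged 10 CPM or more in any group, by Pearson's r of log2 CPM. For mtl-1 they were aakg-4 (r = 0.956), F09F7.6 (0.951) and clec-61 (0.944), and for mtl-2 cysl-3 (0.954), Y22D7AR.10 (0.952) and hpo-19 (0.952). For cdr-1 the nearest was Y44A6D.3 (0.909), before zig-1 (0.797) and fmo-5 (0.785), and for cdr-2 F55G11.8 (0.879), before Y51F10.7 (0.812) and T20D3.2 (0.788). For cdr-4 they were cyn-12 (0.911), F26A3.1 (0.89) and ech-2 (0.883), and for numr-1 F08G2.5 (0.935), gst-24 (0.916) and Y58A7A.5 (0.856). Each r is a description over libraries that share groups. Among the 6 genes themselves, r was highest between cdr-4 and numr-1 (0.76), and cdr-2 and cdr-4 had an r of 0.21.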

How the data were processed

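Per the methods, the authors sequenced single-end reads of more than 1 length, demultiplexed and converted them with CASAVA 1.8.2 and mapped them in CLC Genomics Workbench to WBcel235. They deposited counts of exon reads, unique exon reads, exon-exon reads and intron reads for 46856 genes per library; total exon reads entered the tests as deposited. A set of 25 unnamed columns was not used, and neither were the authors' TPM and RPKM. The exon lengths of the files are coding lengths (95.4% are multiples of 3). Counts were filtered with filterByExpr, scaled by TMM and tested with edgeR 4.0.16 (quasi-likelihood, 1 coefficient per group, two-sided) in R 4.3.3, with Benjamini-Hochberg adjustment over all genes tested and calls at an adjusted p under 0.05. Comparisons without C (HS) at 1 temperature used 12 libraries (13892 genes), those among heated groups with C (HS) 6 (13149 genes), and the heat responses all 14 (14084 genes). Fold changes are first-named over second-named group. CPM use TMM factors over 14 libraries, so ratios of CPM can differ slightly from fitted values. Likeness used log2 CPM with a prior count of 2.

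The 6 genes are all named; of the lists, at most the 3 largest called changes per comparison are named, and hrg-2 for its place. The genes and lists were chosen with earlier results of these data known. Of the cdr family, cdr-5 was not matched by name, and whether hrg-2 is the same gene was not settled. The methods call the libraries of a group biological replicates. Alternatives were RLE factors, DESeq2 1.42.0, no filter, unique reads, removal of the coding length trend, each library left out, blocks, other library sets and, added after seeing the data, summed numr-1 and numr-2 reads. The steps were tested on simulated data. The split by junction reads (cut at 15%) follows a technical measure. Python 3.11.15 (pandas 2.3.3, scipy 1.17.1, matplotlib 3.10.9) handled tables and plots. With 2 libraries per group, p-values measure the spread between libraries of a group. Outside C (HS) this spread includes the difference between the junction-read sets, as the main tests had no block. Each fit estimated this spread over all groups in it, including those outside the comparison.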

Additional observations from a re-analysis of the deposited data

Results flagged for a closer look

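The heat responses of mtl-2 and cdr-2 differed between rIIS-C and C by the test of the difference itself. The C (HS) libraries behind the response of C lay between the junction-read sets. For mtl-2 the response of rIIS-C minus that of C was −3.79 on the log2 scale, and none of the mtl-2 reads in C (HS) crossed its exon junction. For cdr-2 the difference was 2.07, with cdr-2 high in both rIIS-C (HS) libraries.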

How the results depend on the processing

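Of 1429 alternative values of the 6 genes, 1338 kept their direction and their side of the threshold, 43 lost the call, 19 gained one and 29 changed sign, none of them a value that was called as reported. Of 252 counts of called members, 22 moved by more than 1.5 times. With all 14 libraries in the fit, 1 member was called in rIIS-C against C, 1 in daf-16i against rIIS-C and 3 in skn-1i against rIIS-C. With the coding length trend removed, 2 were called in rIIS-C (HS) against C (HS) and 1 in daf-16i against C, and with only the groups compared 1 was called in rIIS-C (HS) against rIIS-C. Leaving out each library in turn, the members called ran from 1 to 2 in rIIS-C against C, 0 to 2 in rIIS-C (HS) against C (HS), 1 to 2 in daf-16i against rIIS-C, 1 to 5 in skn-1i against rIIS-C, 3 to 5 in hsf-1i (HS) against rIIS-C (HS), 1 to 5 in hsf-1i (HS) against C (HS), 3 to 5 in C (HS) against C (the 5 includes mtl-1 at 0 reads) and 1 to 2 in rIIS-C (HS) against rIIS-C. The members behind a count also changed. Without rIIS-C replicate 2, cdr-4 (log2FC 1.11) and neither metallothionein was called in daf-16i against rIIS-C. The causes were not tested.

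Signs turned among values not called. With the length trend removed, mtl-2 was 0.96 in rIIS-C (HS) against C (HS), cdr-4 −0.00 in skn-1i against C, cdr-1 −0.09 in C (HS) against C and mtl-1 0.55 in the difference of the heat responses. With all 14 libraries mtl-2 was 0.01 in rIIS-C (HS) against C (HS), and the summed numr-1 and numr-2 reads gave −0.30 in skn-1i against daf-16i. Over the left-out libraries, cdr-2 ran from −0.16 to 0.35 and numr-1 from −0.29 to 0.42 in rIIS-C against C, and mtl-2 from −0.77 to 0.42 in rIIS-C (HS) against C (HS). cdr-1 ran from −0.67 to 0.34 and cdr-2 from −0.09 to 0.42 in daf-16i against rIIS-C, cdr-1 from −1.55 to 0.16 in hsf-1i (HS) against rIIS-C (HS), and cdr-1 from −0.96 to 0.06 and cdr-4 from −0.09 to 0.02 in daf-16i against C. cdr-4 ran from −0.10 to 0.16 in skn-1i against C and from −0.07 to 0.19 in skn-1i against daf-16i, and cdr-1 from −0.87 to 1.15 in hsf-1i (HS) against C (HS). In C (HS) against C, mtl-1 ran from −0.41 to 0.94 and cdr-1 from −0.72 to 0.72, numr-1 from −0.01 to 1.53 in rIIS-C (HS) against rIIS-C, and in the difference of the heat responses mtl-1 from −1.53 to 0.07 and cdr-4 from −0.38 to 0.69. Where leaving out a library left mtl-1 at 0 reads in a group, no value is given.

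Outside C (HS), the replicate numbers of the labels ran with the junction-read sets except in rIIS-C (HS), where they ran the other way. By label numbers, the r of the deviations was −0.373 to −0.194 for pairs of rIIS-C (HS) with these groups. It was 0.116 to 0.318 for the other pairs outside C (HS). The junction-read sets paired the libraries of all groups outside C (HS), with r of 0.116 to 0.373 over all 15 pairs of groups. As a block they gave 3 members in rIIS-C against C, 3 in daf-16i against rIIS-C and 3 in rIIS-C (HS) against rIIS-C. The counts were as reported in the other 5 comparisons so fitted. With the label numbers as a replicate block the members called stayed at 2 in rIIS-C against C, 2 in daf-16i against rIIS-C, 5 in skn-1i against rIIS-C, 5 in hsf-1i (HS) against rIIS-C (HS) and 3 in C (HS) against C. Few reads limit mtl-1, cdr-1 and numr-1, and 2 libraries per group limit all genes.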
